A study of Mus musculus with 44 samples.

Results

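The Myc network is made of transcription factors that bind DNA in pairs through the protein MAX. The 9 genes described here are its core members, namely the activators Myc, Mycn and Mycl, the shared partner Max, and the antagonists Mxd1, Mxd3, Mxd4, Mxi1 and Mnt, and they were taken by gene name from 32287 gene identifiers that every expression table listed. MYC, MYCN and MYCL pair with MAX on the E-box, the letters CACGTG, and raise transcription of genes for ribosome production, nucleotide synthesis and growth, whereas MXD proteins, MXI1 and MNT pair with MAX on the same letters and recruit the SIN3 corepressor, which removes acetyl groups from histones. In the mouse epiblast, cells with less Myc than their neighbours are known to be removed by cell competition, in which fitter cells outgrow and eliminate less fit ones. These members were therefore followed across the epiblast, the extraembryonic endoderm and the gut endoderm to which both lineages contribute.

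RNA was measured in 44 low-input bulk libraries of 12 groups from mouse chimaeras, each made by aggregating an mCherry+ pre-compaction morula (CD1/G4) with GFP+ mESCs (G4). In these chimaeras the GFP+ cells form the embryo proper and mCherry+ cells found in the gut are extraembryonic in origin. All embryos were transferred to CD1 females and staged with an allowance for the delay that transfer causes. The groups at E6.5 were the GFP+ epiblast (Epi), the distal mCherry+ extraembryonic endoderm (exEndo1), whose descendants enter the gut, and the proximal mCherry+ extraembryonic endoderm (exEndo2), which forms yolk sac endoderm. They were dissected by hand from single WT embryos, with 4 libraries per group. The groups at E9.5 were emMidgut and emHindgut, sorted as EPCAM+ cells positive for GFP and low for mCherry, exMidgut and exHindgut, sorted as EPCAM+ mCherry+ cells, and mCherry+ yolk sac endoderm (YsEndo), with 4 libraries per group of WT cells pooled from several embryos. The midgut and hindgut libraries of each origin are called emGut and exGut together. The groups at E13.5 were emColon and emSI, sorted as EPCAM+ GFP+ WT cells, and exColon and exSI, sorted as EPCAM+ mCherry+ Trp53 KO cells (SI, small intestine), with 3 libraries per group from single embryos. The GFP+ cells all came from 1 male mESC clone with EGFP under the CAG promoter at Rosa26, while mCherry+ cells could be of either sex. Per the study's methods, mCherry stood under the EF1a promoter in a mouse line derived from mESCs and kept by mating with C57BL/6J females. Origin, cell source and strain background therefore changed together in every comparison of mCherry+ with GFP+ cells, and at E13.5 the Trp53 genotype changed with them, so that their parts in a difference cannot be told apart. The same holds for stage, dissection or sorting, and pooling between stages.

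The reporters followed the labels. EGFP was listed between 180 and 880 TPM, a unit that scales each gene by its length and the library by its total, in every GFP+ library and at 15.9 TPM or less in every mCherry+ library, and mCherry was between 1731 and 8667 TPM in every mCherry+ library and at 6.61 TPM or less in every GFP+ library. Trp53 was between 33.4 and 167 TPM in the 6 Trp53 KO libraries and between 151 and 245 TPM in the 6 E13.5 WT libraries, so its RNA was not absent from the KO cells. Of 8 gut endoderm genes, 7 or 8 were above 1 TPM in every library of each gut group, Sox17 being listed at 0 in exSI, exColon and emColon, and of 7 epiblast genes all 7 were above 1 TPM in each Epi library. Aligned depth per library was between 3.53 and 12 gigabases. Mean correlations between libraries of the same group were between 0.977 and 0.988 at E6.5, between 0.937 and 0.987 at E9.5 and between 0.850 and 0.910 at E13.5, and the median coefficient of variation of the members within groups was 25.7%, 26.5% and 57.4% at these stages. Values at E13.5 are thus the least precise. In bulk libraries a lower level can come from fewer cells of a type that expresses the gene or from less RNA per cell, and these cannot be told apart.

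The region before the annotated start of 8 of the 9 members was available (RefSeq, GRCm38.p6). The windows were searched for the E-box CACGTG, which is its own reverse complement and therefore reads the same on both strands. Across 300 bases, from 250 before to 50 after the start, the E-box was present for Max, starting 3 bases before the start, for Mxd4, 219 bases before it, and for Mnt, 123 bases before it. It was present in 7.15% of all 32851 promoter windows of this length, and it was not in the windows of Mycn, Mycl, Mxd1, Mxd3 or Mxi1. A match describes the letters only. The stretches before the starts of the activator that was lower in YsEndo than in every other group and still above 1 TPM there (Mycn), of the pair that rose together in the gut (Mxd4 and Mxi1) and of Mnt, the remaining antagonist with an E-box, are shown here 5′ to 3′ on the gene's own strand, with E-boxes in capitals. They lie on chr12:12941915-12942086 (minus strand), chr5:34187721-34187960 (minus strand), chr19:53310256-53310505 (plus strand) and chr11:74830674-74830919 (plus strand), in that order. Bases next to the start that the annotation puts in an exon of the gene were left out, 78 for Mycn, 10 for Mxd4 and 4 for Mnt. These stretches therefore end before the start from which the E-box distances are counted. Mxi1 has 3 annotated starts, and the stretch before the first is shown.
Mycn: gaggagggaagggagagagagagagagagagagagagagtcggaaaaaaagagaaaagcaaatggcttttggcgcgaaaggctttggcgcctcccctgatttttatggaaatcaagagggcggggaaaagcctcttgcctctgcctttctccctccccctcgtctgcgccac
Mxd4: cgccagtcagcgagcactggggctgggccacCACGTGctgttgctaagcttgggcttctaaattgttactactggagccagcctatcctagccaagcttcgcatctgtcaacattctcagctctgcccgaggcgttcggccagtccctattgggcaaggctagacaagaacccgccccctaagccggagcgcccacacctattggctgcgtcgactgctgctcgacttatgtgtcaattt
Mxi1: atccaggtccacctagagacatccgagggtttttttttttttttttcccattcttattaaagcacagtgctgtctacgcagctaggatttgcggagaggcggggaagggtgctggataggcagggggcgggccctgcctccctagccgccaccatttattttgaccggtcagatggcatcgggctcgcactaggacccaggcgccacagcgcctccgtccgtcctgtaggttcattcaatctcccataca
Mnt: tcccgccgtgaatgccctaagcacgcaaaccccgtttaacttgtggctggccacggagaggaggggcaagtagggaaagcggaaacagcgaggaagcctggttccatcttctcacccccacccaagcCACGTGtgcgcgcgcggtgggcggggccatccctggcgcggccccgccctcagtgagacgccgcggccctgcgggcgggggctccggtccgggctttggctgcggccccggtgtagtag

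Mycn was the most abundant activator in most of the material. Its RNA level in TPM, which is scaled by transcript length and so can be set beside that of another gene, was above that of Myc in 33 of 44 libraries. The median over the 44 libraries was 54.5 TPM for Mycn (chr12:12936093-12941914, mm10, minus strand), 37.1 TPM for Myc (chr15:61985391-61990374, plus strand) and 10.6 TPM for Mycl (chr4:122995652-123002485, plus strand). The partner Max (chr12:76937269-76962201, minus strand) had a median of 43.1 TPM. The antagonists were lower, with medians of 9.96 TPM for Mxi1 (chr19:53310518-53375810, plus strand), 9.82 TPM for Mxd4 (chr5:34173883-34187720, minus strand), 5.09 TPM for Mxd1 (chr6:86647042-86669161, minus strand), 3.55 TPM for Mxd3 (chr13:55325168-55329823, minus strand) and 1.70 TPM for Mnt (chr11:74830920-74845725, plus strand). Myc, Mycn and Max were above 1 TPM in all 44 libraries, Mxd4 and Mxi1 in 43 each, Mxd1 in 40, Mycl in 34, Mxd3 in 33 and Mnt in 32, and Mxd3 was listed at 0 in 7 libraries.

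**Figure D1:**
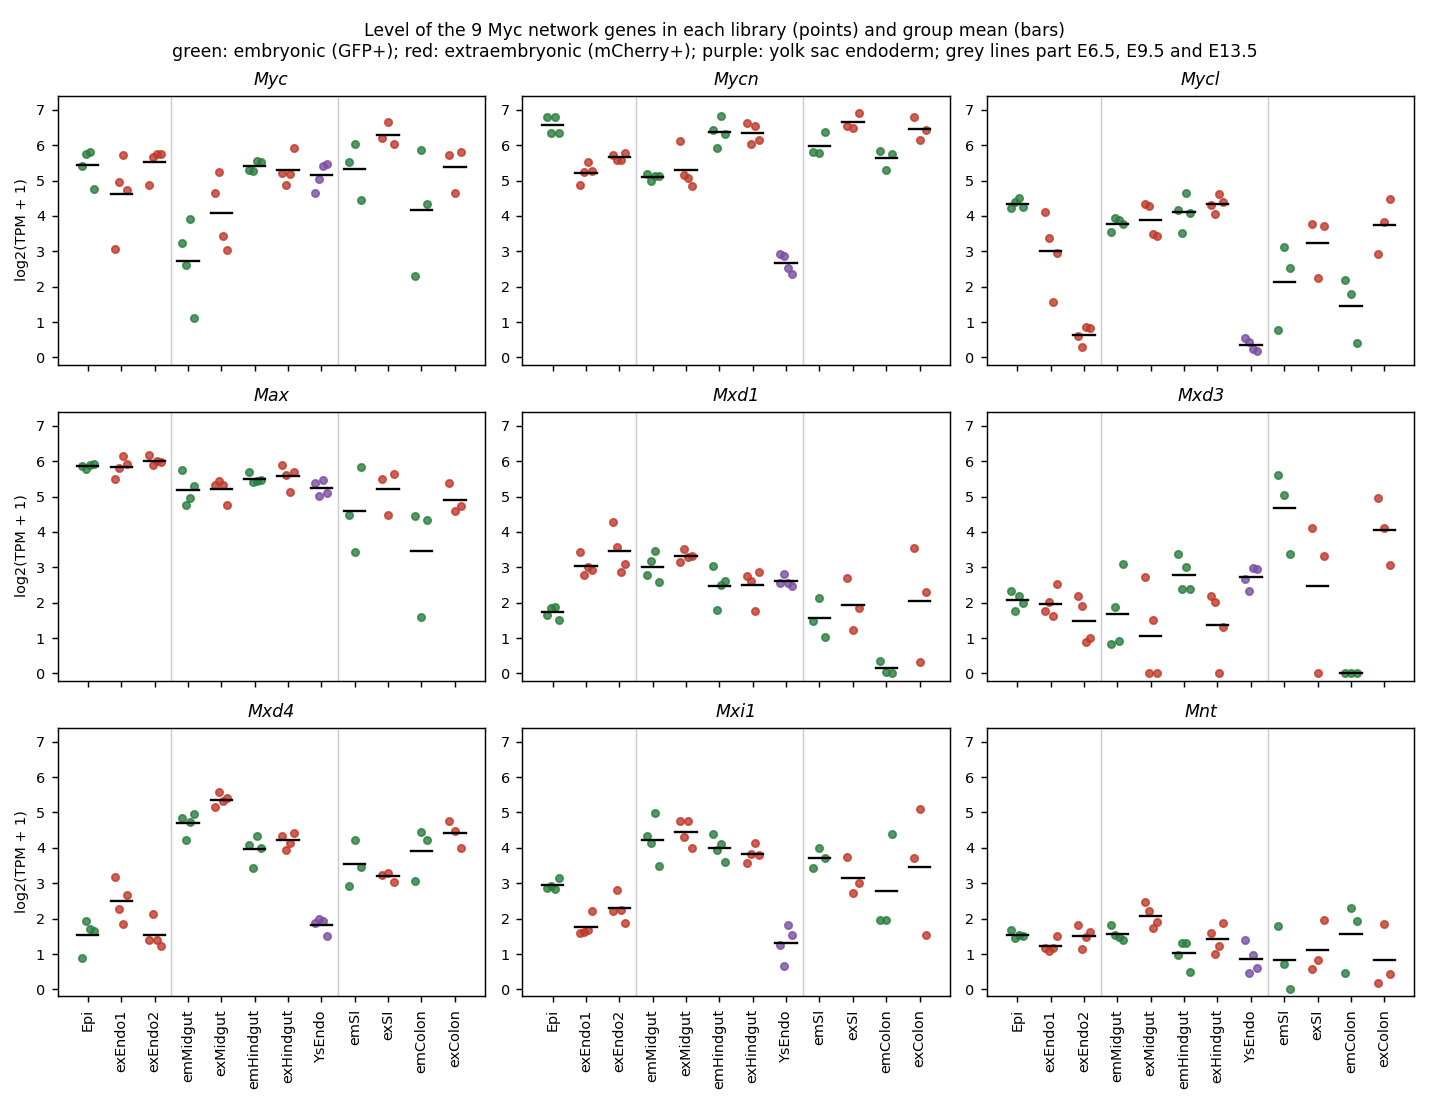
Level of each member on the log scale of TPM used for the fits, with a point for each of the 44 libraries. Bars are the means of the 12 groups on this scale. In TPM before the log scale, Mycn falls to a mean of 5.45 in YsEndo and Myc to 7.20 in emMidgut. Mxd4 and Mxi1 have their highest means in exMidgut, at 40.4 and 21.4 TPM.

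For Myc, the order of group means from high to low was exSI, exEndo2, Epi, emSI, exColon, emHindgut, exHindgut, YsEndo, exEndo1, emColon, exMidgut and emMidgut. They ran from 79.1 ± 18.6 TPM (SD, n = 3) in exSI to 7.20 ± 5.48 TPM (SD, n = 4) in emMidgut, an 11-fold span, and of the 11 pairs of neighbours in this order only exSI and exEndo2 had libraries that did not overlap. For Mycn the order was exSI, Epi, exColon, emHindgut, exHindgut, emSI, exEndo2, emColon, exMidgut, exEndo1, emMidgut and YsEndo, from 99.7 ± 17.2 TPM (SD, n = 3) to 5.45 ± 1.18 TPM (SD, n = 4), an 18.3-fold span in which only emMidgut and YsEndo were separate neighbours. Mycl had the widest span of the activators, 66.8-fold, in the order exHindgut, Epi, emHindgut, exMidgut, exColon, emMidgut, exSI, exEndo1, emSI, emColon, exEndo2 and YsEndo, from 19.5 ± 3.22 to 0.292 ± 0.154 TPM (SD, n = 4 each), with 0 of 11 neighbouring pairs separate. Max had a span of 4.53-fold, in the order exEndo2, Epi, exEndo1, exHindgut, emHindgut, exSI, YsEndo, exMidgut, emMidgut, exColon, emSI and emColon, from 63.7 ± 5.39 TPM (SD, n = 4) to 14.1 ± 10.5 TPM (SD, n = 3), again with 0 separate neighbours. The activators thus had wider spans over the groups than their shared partner.

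Among the antagonists, Mxd4 ran over 20.4-fold in the order exMidgut, emMidgut, exColon, exHindgut, emColon, emHindgut, emSI, exSI, exEndo1, YsEndo, Epi and exEndo2, from 40.4 ± 5.12 to 1.98 ± 0.930 TPM (SD, n = 4 each), and exMidgut and emMidgut were its only separate neighbours. Mxi1 ran over 13.3-fold in the order exMidgut, emMidgut, exColon, emHindgut, exHindgut, emSI, emColon, exSI, Epi, exEndo2, exEndo1 and YsEndo, from 21.4 ± 5.49 to 1.6 ± 0.837 TPM (SD, n = 4 each), with Epi and exEndo2 as its only separate neighbours. The orders of Mxd4 and Mxi1 shared their first 3 groups. Mxd1 had a different order, exEndo2, exMidgut, exEndo1, emMidgut, YsEndo, exColon, exHindgut, emHindgut, exSI, Epi, emSI and emColon, from 10.8 ± 5.47 TPM (SD, n = 4) to 0.109 ± 0.147 TPM (SD, n = 3), and only emSI and emColon did not overlap. Mxd3 had its highest mean in emSI, 29.6 ± 19.1 TPM (SD, n = 3), followed by exColon, exSI, emHindgut, YsEndo, Epi, exEndo1, emMidgut, exEndo2, exHindgut and exMidgut, and was listed at 0 in all 3 emColon libraries. Mnt was low in every group, between 3.30 ± 0.980 TPM in exMidgut and 0.873 ± 0.562 TPM in YsEndo (SD, n = 4 each), in the order exMidgut, emColon, emMidgut, Epi, exEndo2, exHindgut, exSI, exEndo1, emHindgut, exColon, emSI and YsEndo, with 0 separate neighbours.

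The summed level of the 3 activators and that of the 5 antagonists were set beside each other as a description of how the network's RNA was made up. In Epi the activators summed to 158 ± 26.2 TPM and the antagonists to 16.2 ± 0.533 TPM (SD, n = 4), a mean ratio of 9.76. In exMidgut they summed to 74.8 ± 31.5 and 76.0 ± 5.65 TPM (SD, n = 4), a ratio of 0.972, and in emMidgut to 53.5 ± 6.21 and 56.5 ± 9.11 TPM (SD, n = 4), a ratio of 0.954. The hindgut groups lay between these, with ratios of 3.53 in exHindgut and 3.40 in emHindgut. The midgut was the only place where antagonist RNA exceeded activator RNA in a library, in 2 of 4 exMidgut and 3 of 4 emMidgut libraries. YsEndo had the lowest activator sum of all groups, 41.0 ± 7.65 TPM (SD, n = 4), and an antagonist sum of 15.9 ± 1.74 TPM, near that of Epi, with a ratio of 2.59. It was also the only group in which the mean share of Mycn in activator RNA lay below that of Myc, 14.1% ± 5.71 (SD, n = 4), against means between 50.5% and 66.9% in the 11 other groups.

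**Figure D2:**
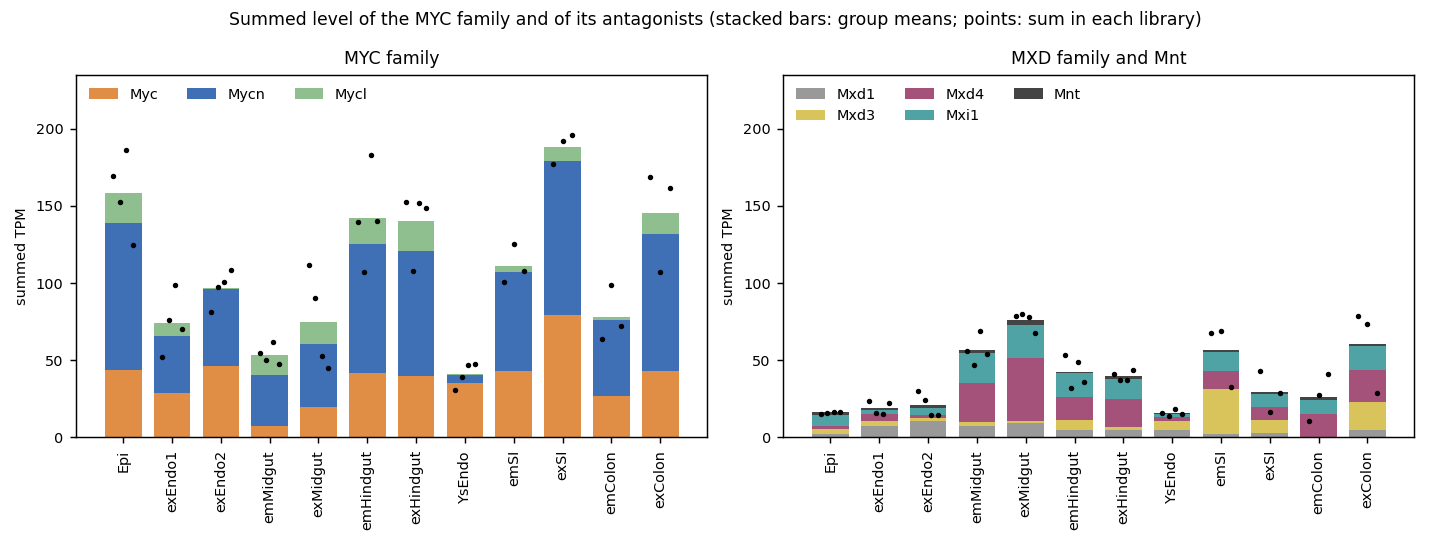
Summed TPM of the MYC family (left) and of the MXD family with Mnt (right) in the 12 groups, as stacked bars of the group means on axes that start at 0, with a point for the sum in each library. The activator sum is 53.5 TPM in emMidgut and 41.0 TPM in YsEndo against 142 TPM in emHindgut, and the antagonist sum is highest in exMidgut at 76.0 TPM.

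At E6.5 the lineages that later meet in the gut differed in 4 of the 9 members. Mycn, Mycl and the antagonist Mxi1 were lower and the antagonist Mxd1 was higher in exEndo1, the distal extraembryonic endoderm, than in the epiblast, whereas Myc, Max, Mxd3, Mxd4 and Mnt were not called. A gene was called where limma on log2(TPM + 1), with Benjamini-Hochberg adjustment over all genes tested, gave an adjusted p below 0.05 together with a log2 fold change beyond 1 in either direction. The tissues were far apart in general, and 33.4% of 12057 genes tested were called in this comparison, 19.8% higher and 13.6% lower. The level of Mycn was 110, 79.7, 109 and 80.9 TPM in the Epi libraries and 28.4, 36.5, 44.9 and 37.8 TPM in the exEndo1 libraries. Every exEndo1 library lay below every Epi library, and the fitted difference was a log2 fold change of -1.34 (SE 0.169, limma adjusted p = 3.81e-05), 2.57-fold in group means. The level of Mycl was 17.7, 20.0, 21.9 and 17.9 TPM in Epi and 16.3, 9.36, 1.94 and 6.75 TPM in exEndo1. These groups did not overlap either, but exEndo1 replicate 1 lay just under Epi and replicate 3 far below it, and the log2 fold change was -1.35 (SE 0.420, adjusted p = 0.0154). Without exEndo1 replicate 3 it was -0.86 and no longer passed the fold limit.

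Mxd1, which is known to rise as cells leave the cell cycle and differentiate, was 2.14, 2.63, 2.66 and 1.83 TPM in Epi and 9.87, 5.87, 7.0 and 6.57 TPM in exEndo1. All exEndo1 libraries were above all Epi libraries, with a log2 fold change of 1.31 (SE 0.187, limma adjusted p = 9.2e-05), 3.16-fold in group means. Mxi1 went the other way, from 6.29, 6.54, 6.21 and 7.91 TPM in Epi to 2.00, 2.09, 2.21 and 3.65 TPM in exEndo1, a log2 fold change of -1.17 (SE 0.185, adjusted p = 0.000203) with no overlap. The 4 members that were called were the 4 whose groups did not overlap (exact two-sided permutation p = 0.0286, the smallest that 4 against 4 libraries can give), where 56.6% of all genes tested did not overlap. Mxd4, a further antagonist of the family, had an adjusted p of 0.0156 but a log2 fold change of 0.96, just under the limit. For Myc the difference was -0.81 on the log2 scale (95% CI -1.83 to 0.21, adjusted p = 0.150), an interval that holds both no change and a fall below that of Mycn, since exEndo1 ran from 7.33 to 52.2 TPM. For Max it was -0.03 (95% CI -0.34 to 0.29). Traces of epiblast RNA in exEndo1 were measured beside these values. EGFP in replicates 1 to 4 was at 0.282%, 3.55%, 0.0172% and 4.13% of the Epi mean, and Mycl at 83.9%, 48.3%, 10.0% and 34.8% of it. The part of epiblast RNA in the Mycl level of exEndo1 was not tested.

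Within the extraembryonic endoderm, Mycl separated the distal from the proximal part. It was 0.514, 0.232, 0.83 and 0.767 TPM in exEndo2 and higher in each exEndo1 library, with a log2 fold change of 2.35 (SE 0.438, limma adjusted p = 0.0049) and 14.6-fold higher group means. It was the only member called, where 6.41% of 11414 genes were called, 3.96% higher and 2.45% lower. All exEndo2 libraries lay under 1 TPM, so Mycl passed the filter on low values only through exEndo1. Mycn was 52.0, 47.1, 47.0 and 54.4 TPM in exEndo2 and did not overlap with exEndo1, the lower group, but the log2 fold change was -0.45 (95% CI -0.76 to -0.13) and the adjusted p was 0.0640. Mycl and Mycn were the 2 members whose groups did not overlap, against 19.6% of the genes tested. Mxd4 had a log2 fold change of 0.97 (95% CI 0.30 to 1.63, adjusted p = 0.0560). The epiblast marker genes summed to between 369 and 572 TPM in exEndo1 and between 174 and 233 TPM in exEndo2, with 5 and 2 of 7 above 1 TPM in every library and none at 0 throughout. They were between 3059 and 4515 TPM in Epi, and their part in the Mycl difference was not tested.

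Genes around the network moved with these tissues. Of 25 nucleolar genes that MYC is known to activate, all 25 had a lower fitted level in exEndo1 than in Epi, as did 45.6% of all genes, and 21 had an adjusted p under 0.05, as did 62.9% of all genes. Only Dkc1, which encodes a subunit of the enzyme that makes pseudouridine in ribosomal RNA, passed the fold limit as well, with 164 ± 12 against 396 ± 59.2 TPM (SD, n = 4 each) and a log2 fold change of -1.26 (limma adjusted p = 7.24e-06). The median log2 fold change of the list was -0.67, where that of all genes tested was 0.09. For the counts of called genes that follow, 19.8% of all genes tested were called higher and 13.6% lower, 33.4% together. Of 28 growth and metabolism targets, 8 were lower and 1 was higher (list median -0.73). The one that rose was Slc16a1, a lactate transporter, at 809 against 53.3 TPM (log2 fold change 3.9), and Ccnd2, a cyclin of the entry into S phase, Tfrc, the transferrin receptor, and Paics, an enzyme of purine synthesis, fell by 2.56, 2.30 and 1.48 on the log2 scale. Of the cofactors of MYC, the helicase genes Ruvbl2 and Ruvbl1 were lower (-1.31 and -1.25). Of 12 genes that act on the turnover of MYC proteins, only Usp28 was called. It encodes a deubiquitinase that protects MYC, and its level was 8.58 ± 1.73 against 82.7 ± 15.1 TPM (SD, n = 4 each), a log2 fold change of -3.13 (adjusted p = 8.36e-08). Of 16 genes linked to cell competition, 7 were higher and 2 were lower in exEndo1. Tead4 and Tead1, DNA-binding partners of YAP, and Sparc, which protects loser cells in some settings, rose by 3.35, 2.26 and 2.42 on the log2 scale, and Trp53 fell by 1.54. Of the 15 genes tested of the integrated stress response, 6 were higher and 2 lower, among them Atf3 (3.27) and Gdf15 (1.62, at 2.51 against 0.141 TPM) upwards and Mthfd2 (-2.60) and Chac1 (-1.95) downwards. Tead4 and Gdf15 were under 1 TPM in every Epi library and Chac1 in every exEndo1 library, so each passed the filter on low values only through the group in which it was high. In the SIN3 corepressor, Rbbp7 was higher (1.47) and Sap30 lower (-1.52), of 15 genes.

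At E9.5, 0 of the 9 members were called between exGut and emGut, 8 libraries of each in a fit without a covariate, and 1 of the 9 had an unadjusted p under 0.05. Across 13473 genes tested 2.35% were called, and at an unadjusted p under 0.05 there were 2225 genes. Midgut and hindgut libraries may share embryos, and p-values over 8 libraries a group are too small if they do. The fitted log2 differences, exGut minus emGut, were 0.63 for Myc (95% CI -0.62 to 1.89, limma adjusted p = 0.658), 0.08 for Mycn (95% CI -0.59 to 0.74, adjusted p = 0.938) and 0.17 for Mycl (95% CI -0.27 to 0.62, adjusted p = 0.757). The interval of Myc is wide enough to hold a difference of more than 1 on the log2 scale in favour of exGut, while those of Mycn, Mycl and Max are narrower. For Max the difference was 0.05 (95% CI -0.31 to 0.41). Among the antagonists it was 0.17 for Mxd1 (95% CI -0.43 to 0.76), 0.46 for Mxd4 (95% CI -0.11 to 1.04), 0.02 for Mxi1 (95% CI -0.46 to 0.50) and 0.46 for Mnt (95% CI -0.10 to 1.02). Mxd3 had the lowest unadjusted p of the members, 0.0495, at -1.02 (95% CI -2.03 to -0.00, adjusted p = 0.301). The groups of no member separated completely, and 1.41% of all genes tested did so.

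Split by region, Myc in the midgut was 24.1, 36.9, 9.84 and 7.27 TPM in exMidgut and 8.48, 5.07, 14.1 and 1.16 TPM in emMidgut, a log2 difference of 1.38 (95% CI 0.11 to 2.64, limma adjusted p = 0.251) with overlapping groups. In the hindgut Myc was 36.3, 28.4, 35.5 and 59.0 TPM in exHindgut and 38.0, 37.3, 45.7 and 45.4 TPM in emHindgut, a log2 difference of -0.11 (95% CI -0.56 to 0.34). The test of the difference between the regions gave -1.49 (95% CI -2.90 to -0.07) with an unadjusted p of 0.0404 and an adjusted p of 0.618, so an origin effect on Myc that differs between regions was not shown, and 0.0965% of genes passed this test. In the midgut Mxd4 was higher in all exMidgut libraries, at 34.6, 46.9, 38.9 and 41.1 TPM, than in the emMidgut libraries, at 27.7, 17.7, 25.8 and 29.9 TPM, with a log2 fold change of 0.67 (95% CI 0.19 to 1.15) that missed the threshold (adjusted p = 0.130). It was the 1 member without overlap there, where 10.3% of genes tested had none and 2.58% were called. In the hindgut the 1 member without overlap was Mxd3, against 11.9% of genes. Its level was 3.57, 3.08, 0 and 1.46 TPM in exHindgut and 9.40, 4.24, 7.02 and 4.24 TPM in emHindgut, and the log2 fold change of -1.41 (95% CI -2.46 to -0.36) did not pass the test either (adjusted p = 0.121, with 3.07% of genes called). Part of the exons of Mxd3, 4.43% of their bases, overlaps with Prelid1, which was between 174 and 765 TPM, and the libraries did not mark the strand, so low values of Mxd3 are uncertain.

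Around the network, the only called gene of 9 lists between exGut and emGut was Cdkn2b, the cell cycle inhibitor p15, which MYC represses together with ZBTB17. It was 33.0 ± 16.2 TPM in exGut and 4.45 ± 1.77 TPM in emGut (SD, n = 8 each), a log2 fold change of 2.54 (SE 0.325, limma adjusted p = 6.76e-05), and it was called in the midgut (2.98) and in the hindgut (2.10) separately. In the hindgut Cdkn1a, the cell cycle inhibitor p21 and a target of p53, was also higher in exHindgut, at 579 ± 90.3 against 256 ± 49.2 TPM (SD, n = 4 each, log2 fold change 1.18), as was Sesn2 (1.07), while Mthfd2, an enzyme of mitochondrial folate metabolism, was lower (-1.12). In the midgut Nupr1, a gene of the stress response, was lower in exMidgut (-2.17). Of 28 growth and metabolism targets 27 had a lower fitted level in exGut, as did 53.0% of all genes, but 0 were called, 4 had an adjusted p under 0.05, where 3.61% of all genes had, and the list median was -0.28, where all genes had -0.03. Of 25 nucleolar targets 21 had a lower fitted level (median -0.14), and 0 had an adjusted p under 0.05. The mesenchyme genes summed to between 25.9 and 62.4 TPM in exGut, with 2 to 3 of 8 above 1 TPM in every library of a group. They summed to between 66.9 and 189 TPM in emGut, with 3 to 7 of 8, and Twist1 was listed at 0 in emMidgut. The visceral and yolk sac endoderm genes were also unlike between the origins, and the part of either list in these differences was not tested.

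**Figure D3:**
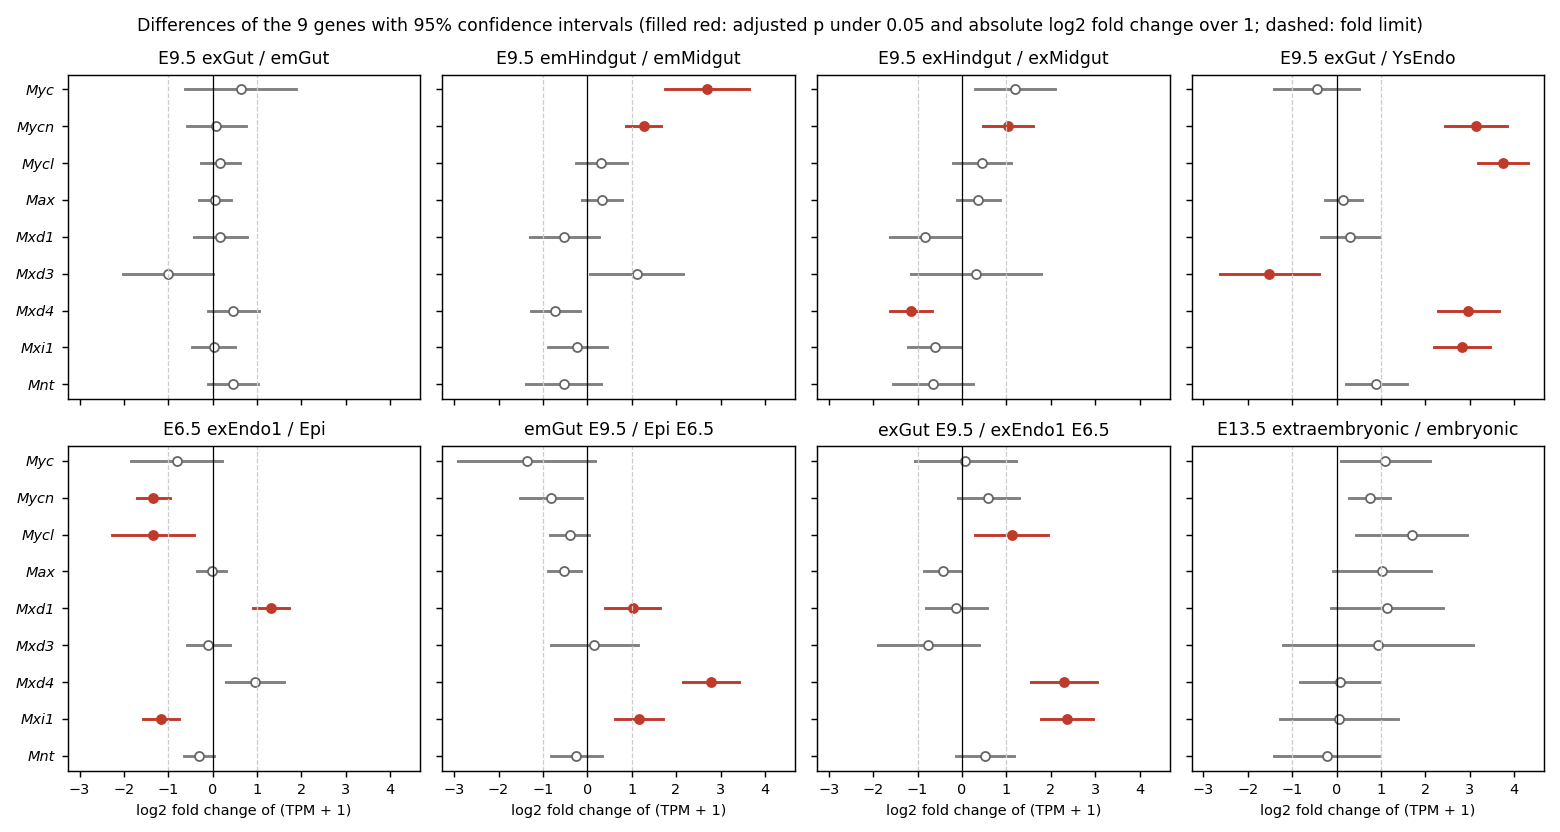
Fitted log2 differences of the 9 members in the comparisons at E6.5, E9.5 and E13.5 and between stages, with points for the estimates, bars for 95% confidence intervals and filled points for members that were called. Between exGut and emGut no interval lies wholly above 0, whereas Mycn lies at 3.14 and Mycl at 3.75 for exGut against YsEndo.

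The regions of the gut were compared within each origin. In emHindgut against emMidgut, Myc and Mycn were higher. The emHindgut libraries had 38.0, 37.3, 45.7 and 45.4 TPM of Myc against at most 14.1 TPM in emMidgut, a log2 fold change of 2.69 (SE 0.444, limma adjusted p = 0.000427) and 5.78-fold higher group means. Without emMidgut replicates 1 and 3, in which the germ cell gene Dppa3 was at 224 and 183 TPM, it was 3.55. For Mycn the emHindgut libraries had 84.5, 59.3, 113 and 78.7 TPM and the emMidgut libraries 35.5, 30.8, 34.0 and 33.7 TPM, a log2 fold change of 1.27 (SE 0.185, adjusted p = 0.000156). Neither gene overlapped between the regions, and both calls held when any library was left out. These 2 of 9 members were called, both upwards, where 13.9% of 12490 genes were called 5.24% upwards and 8.61% downwards, and Myc, Mycn and Mnt were the 3 without overlap, where 26.0% of genes had none. Mnt was lower in emHindgut with a log2 difference of -0.54 and an adjusted p of 0.361, and Mxd4 had -0.73 (95% CI -1.28 to -0.18, adjusted p = 0.0524).

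In exHindgut against exMidgut, Mycn was higher and Mxd4 was lower. Mycn was 97.4, 64.0, 92.9 and 69.4 TPM in exHindgut and 68.2, 34.7, 32.7 and 27.6 TPM in exMidgut, so that exMidgut replicate 1 overlapped with the hindgut, and the log2 fold change was 1.04 (SE 0.259, limma adjusted p = 0.0131). This value lay near the fold limit and the call was lost in 7 of 15 alternative analyses. Mxd4 was 19.1, 14.5, 16.7 and 20.5 TPM in exHindgut, below each exMidgut library, with a log2 fold change of -1.15 (SE 0.220, adjusted p = 0.00245). For Myc the log2 difference was 1.20 (95% CI 0.30 to 2.11) with an adjusted p of 0.0645, since exMidgut ran from 7.27 to 36.9 TPM. The 2 called members stood against 11.3% of 12331 genes, 4.5% higher and 6.78% lower, and the 2 without overlap, Mxd4 and Mxd1, against 21.2%. Mxd1 had a log2 difference of -0.83 and an adjusted p of 0.142.

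Of 25 nucleolar targets 1 was called higher in emHindgut against emMidgut and 2 in exHindgut against exMidgut, shares near those of all genes. Without the fold limit, 24 of 25 had a higher fitted level in emHindgut, as did 48.5% of all genes, and 15 of 25 had an adjusted p under 0.05, as did 24.9% of all genes, with a list median of 0.63 where all genes had -0.02. In exHindgut 23 of 25 had a higher fitted level, as did 50.3% of all genes, and 14 of 25 had an adjusted p under 0.05, as did 18% of all genes, with a list median of 0.62 where all genes had 0.00. The called genes were Nop2, an RNA methyltransferase of the large ribosomal subunit (1.02, at 76.3 ± 6.91 against 37.5 ± 7.27 TPM), in the embryonic cells, and Utp20, a factor of the small subunit (1.36), and Gnl3, the nucleolar GTPase nucleostemin (1.07, at 162 ± 19.5 against 76.7 ± 10.8 TPM), in the extraembryonic cells (SD, n = 4 each). The summed level of the list was 5981 ± 187 TPM in emHindgut, 5361 ± 38.5 TPM in exHindgut, 3755 ± 311 TPM in emMidgut and 3781 ± 405 TPM in exMidgut (SD, n = 4 each). For genes that MYC represses the list median was -0.65 for both origins. Cdkn1c, the cell cycle inhibitor p57, was lower in emHindgut (-1.55) and in exHindgut (-1.53), and so was Clu, a secreted chaperone (-1.42 and -2.88). In exHindgut 5 of 10 genes of this list were called lower and 1 higher, where 6.78% and 4.5% of all genes were. Srm, the spermidine synthase, was the growth target called in emHindgut (1.02), and Ctps, an enzyme of pyrimidine synthesis, the one in exHindgut (1.04). Mthfd2 was higher in the hindgut of both origins (1.81 and 1.57) and Sparc lower (-1.56 and -1.19), while Gdf15, Atf3 and Nupr1 were lower in emHindgut (-1.98, -1.33 and -1.24). The visceral and yolk sac endoderm genes moved with region too. They summed to between 7095 and 17104 TPM in exMidgut, with 9 of 9 above 1 TPM in every library, and to between 115 and 686 TPM in exHindgut, with 4 of 9 and Cubn at 0. They summed to between 1464 and 3196 TPM in emMidgut, with 7 of 9, and to between 26.7 and 86.8 TPM in emHindgut, with 2 of 9 and Apoa4 at 0. The part of these marker genes in the regional differences was not tested.

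The yolk sac endoderm stood apart from exGut at the same stage. Mycn was 6.55, 6.32, 4.80 and 4.12 TPM in YsEndo and had a lowest value of 27.6, a median of 66.1 and a highest value of 97.4 TPM over the 8 exGut libraries, a log2 fold change of 3.14 (SE 0.329, limma adjusted p = 1.54e-06) and 11.2-fold higher group means. Mycl was 0.471, 0.366, 0.191 and 0.139 TPM in YsEndo and between 9.78 and 23.4 TPM in exGut, with a median of 18.7 TPM, a log2 fold change of 3.75 (adjusted p = 2.95e-08). Mycl passed the filter on low values only through exGut. Myc did not share this pattern. It was 24.0, 32.2, 41.7 and 43.0 TPM in YsEndo, within the exGut range, and the log2 difference was -0.45 (95% CI -1.40 to 0.51, adjusted p = 0.396).

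Among the antagonists, Mxd4 was 2.67, 2.94, 2.83 and 1.84 TPM in YsEndo and had a lowest value of 14.5, a median of 27.6 and a highest value of 46.9 TPM in exGut (log2 fold change 2.96, SE 0.319, limma adjusted p = 2.04e-06). Mxi1 was 1.40, 0.571, 2.56 and 1.88 TPM in YsEndo and had a lowest value of 10.9, a median of 15.7 and a highest value of 26.0 TPM in exGut (log2 fold change 2.82, SE 0.291, adjusted p = 1.33e-06). Mxd3 was lower in exGut, with a median of 1.66 TPM against 6.06 TPM in YsEndo and overlapping groups (log2 fold change -1.51, SE 0.521, adjusted p = 0.0210), and the call was lost without YsEndo replicate 3 (adjusted p = 0.0588) or 4 (adjusted p = 0.0589) and with a pseudocount of 0.1 (adjusted p = 0.0506). In all, 4 members were higher and 1 was lower in exGut, where 42.4% of 12801 genes were called, 32.3% higher and 10.0% lower, and Mycn, Mycl, Mxd4 and Mxi1 were the 4 without overlap (exact two-sided permutation p = 0.0020, the smallest these group sizes can give), where 43.5% of genes had none. The tests count exMidgut and exHindgut libraries as independent, and their p-values are too small if these libraries share embryos. TPM is a share of the library, and the median gene was 0.59 higher in exGut on the log2 scale. After rescaling each library by the median ratio of its genes this shift was 0.07, and all 5 members were still called, with log2 fold changes of 2.61 for Mycn, 2.47 for Mxd4, 2.38 for Mxi1 and -1.93 for Mxd3. Mnt and Max had log2 differences of 0.89 (95% CI 0.21 to 1.58, adjusted p = 0.0251) and 0.15 (95% CI -0.26 to 0.57), under the fold limit.

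Genes of the lists also differed between exGut and YsEndo, where 32.3% of all genes tested were called higher and 10.0% lower. In the SIN3 corepressor 5 of 15 genes were higher in exGut, a share near that of all genes. Among them were Sap30 (3.70), Arid4b (2.14), the histone deacetylase Hdac2 (2.03) and Suds3 (1.15). Of the turnover genes 5 of 12 were higher, among them Fbxw7, the substrate receptor of the ubiquitin ligase that removes MYC and MYCN (2.39, at 15.9 ± 6.5 TPM, n = 8, against 2.14 ± 0.885 TPM, n = 4, SD), the kinase Gsk3b (2.24), Fbxl14 (1.5) and Usp28 (1.42). Of the cofactors, Zbtb17, through which MYC represses transcription, and Smarcb1, a chromatin remodeller, were higher (2.30 and 1.11). Of 25 nucleolar targets 0 were called and 7 had an adjusted p under 0.05, where 62.1% of all genes had, with a list median of 0.04 where all genes had 0.59. Ccnd2 was the growth target with the largest difference (5.95, at 102 against 0.653 TPM), followed by Hk2, a hexokinase (2.85), Srm (-2.06) and Slc16a1 (-1.92), of 6 higher and 3 lower. Of 10 repressed targets 5 were higher, among them Ndrg2 (4.42), Txnip (3.38), Cdkn2b (3.26) and Cdkn1a (3.22). Of 16 cell competition genes 8 were higher and 1 was lower, with Tead2 at 98.4 against 0.468 TPM (6.09), Trp53 at 195 against 50.4 TPM (1.91) and Tead1 (1.56) upwards and Tead4 (-2.10) downwards. Tead2 was under 1 TPM in every YsEndo library and passed the filter only through exGut. The genes of serine synthesis Psat1 and Phgdh, which the stress response activates, were lower (-3.36 and -2.04), as were Slc3a2 (-1.57) and Cebpb (-1.56). All 4 further network genes were called, Mlxip and Mga upwards (1.54 and 1.07) and Mlxipl, the glucose-sensing factor ChREBP, and its partner Mlx downwards (-1.97 and -1.40).

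**Figure D4:**
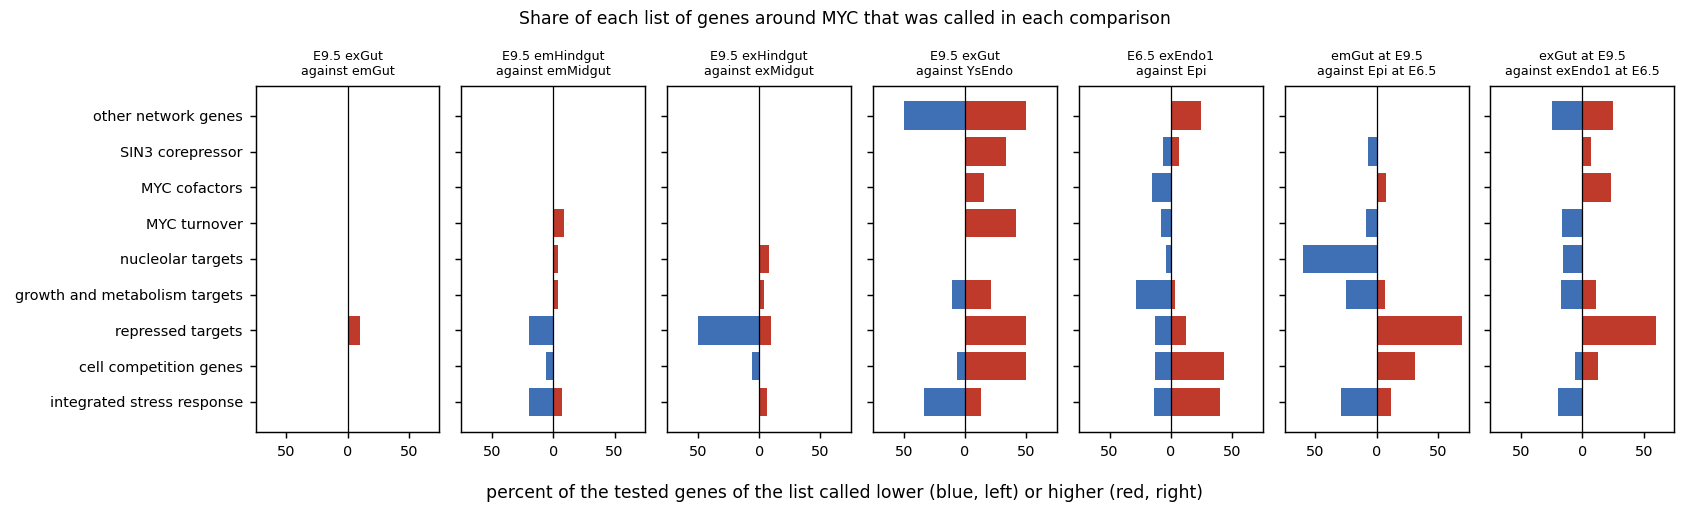
Percent of the tested genes of each list that were called lower (bars to the left) or higher (bars to the right) in 7 comparisons, with the list on the vertical axis. Between exGut and emGut only 1 of 10 repressed targets is called, whereas 15 of 25 nucleolar targets are lower and 7 of 10 repressed targets higher in emGut than in Epi. Of all genes tested between emGut and Epi, 7.31% are called lower and 22.4% higher.

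Between E6.5 and E9.5, of the 5 antagonists Mxd4 and Mxi1 were called higher in both lineages that form the gut, Mxd1 in the embryonic one, and Mxd3 and Mnt in neither. In emGut against Epi, Mxd4 had a lowest value of 9.69, a median of 18.5 and a highest value of 29.9 TPM in emGut and 0.843, 2.80, 2.26 and 2.11 TPM in Epi, a log2 fold change of 2.79 (SE 0.299, limma adjusted p = 3.65e-06). Mxi1 rose by 1.17 (SE 0.253, adjusted p = 0.00145) and Mxd1 by 1.02 (SE 0.294, adjusted p = 0.00992), the latter with overlapping groups and a call that was lost in 8 of 19 alternative analyses, 5 of which left out a single library (Epi replicate 1 or 4, emHindgut replicate 1, emMidgut replicate 2 or 3). These 3 were the called members, where 29.7% of 13053 genes were called 22.4% higher and 7.31% lower. Mycn was at -0.83 (95% CI -1.53 to -0.13, adjusted p = 0.0480) and Max at -0.51 (95% CI -0.89 to -0.14, adjusted p = 0.0258), both under the fold limit, and Myc at -1.37 (95% CI -2.90 to 0.17, adjusted p = 0.126). Max, Mxd4 and Mxi1 were the 3 without overlap, against 33.6% of genes. The median gene was 0.30 higher in emGut, and after rescaling Mxd1 and Mxi1 were at 0.77 and 0.88, under the limit, Mxd4 was at 2.53 and Mycn passed both limits as the lower member. The mesenchyme genes summed to between 13.7 and 20.9 TPM in Epi, below both emGut groups, with 1 of 8 above 1 TPM in every library and none at 0 throughout, and their part in these differences was not tested.

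In exGut against exEndo1, Mxi1 rose by 2.36 (SE 0.273, limma adjusted p = 6.99e-06) and Mxd4 by 2.29 (SE 0.350, adjusted p = 9.25e-05), both without overlap, where 32.7% of genes had none. Mycl rose by 1.12 (SE 0.387, adjusted p = 0.0276), a value that was 0.64 (adjusted p = 0.130) without exEndo1 replicate 3 and 0.98 after rescaling. These 3 were the called members, where 30.3% of 12931 genes were called 18.8% higher and 11.5% lower. Mycn was at 0.59 (95% CI -0.10 to 1.27, adjusted p = 0.143), Myc at 0.08 and Max at -0.44 (adjusted p = 0.0798). In YsEndo against exEndo2, in contrast, Mycn fell by 3.0 (SE 0.163, limma adjusted p = 1.89e-08), 9.20-fold in group means, and Mxd3 rose by 1.24 (SE 0.301, adjusted p = 0.00274). These 2 of 8 members tested were called, where 29.6% of 11205 genes were called, 7.95% higher and 21.6% lower. Mxd1, Mxi1, Max and Mnt were lower in YsEndo by less than the fold limit (-0.86, -0.98, -0.77 and -0.65, with adjusted p of 0.0124, 0.0079, 0.0002 and 0.0374), in a comparison whose median gene was at -0.41. Mycl, at 0.292 and 0.586 TPM, was too low to be tested, and Myc was at -0.38 (95% CI -0.85 to 0.10). Groups of 5 tested members did not overlap, and 59.6% of genes did not. A fall of Mycn between these groups was thus called, and one of Myc was not.

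Whether the change between stages differed by lineage was tested as an interaction, in which a positive value means a larger change towards E9.5 in the extraembryonic lineage (exEndo1 to exGut) than in the embryonic one (Epi to emGut). Mycn (1.42, SE 0.274, limma adjusted p = 0.000197), Mycl (1.52, SE 0.431, adjusted p = 0.00729) and Mxi1 (1.19, SE 0.335, adjusted p = 0.00676) were positive and Mxd1 was negative (-1.14, SE 0.363, adjusted p = 0.0155). These 4 of 9 members passed the test, where 34.3% of 14089 genes did. Mycl rested in part on the low exEndo1 replicate 3. For Myc the value was 1.44 (95% CI 0.15 to 2.74, adjusted p = 0.0788). The members that differed between Epi and exEndo1 at E6.5 were also the ones that passed here, and the comparisons share those libraries. At E9.5 none of them was called between exGut and emGut.

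Genes of the lists changed between the stages as well. In emGut against Epi, 15 of 25 nucleolar targets were called lower, as were 7.31% of all genes. All 25 had a lower fitted level, as did 36.8% of all genes, with a list median of -1.21 where all genes had 0.30. Ddx21, an RNA helicase of the nucleolus, was 30.8 ± 11.6 TPM in emGut (SD, n = 8) and 160 ± 25.1 TPM in Epi (SD, n = 4), a log2 fold change of -2.42 (limma adjusted p = 2.64e-06), and Nop58, Gnl3 and Pa2g4 fell by 1.87, 1.86 and 1.71. In exGut against exEndo1, 4 of 25 were called lower, a share near the 11.5% of all genes (Ddx21 -1.76, Gnl3 -1.66, Nop58 -1.37 and Ncl -1.31, list median -0.64 where all genes had 0.13). In YsEndo against exEndo2, 9 of 25 were called lower, where 21.6% of all genes were (among them Dkc1 -1.39, Polr1b -1.32, Utp20 -1.31 and Npm1 -1.27, list median -0.80 where all genes had -0.41). The interaction passed the test for 9 of 25 nucleolar targets, a share near the 34.3% of all genes, and for 14 of 28 growth targets. Repressed targets went up in both lineages of the gut. In emGut 7 of 10 were called higher, where 22.4% of all genes were, with Clu (4.83), Cdkn1c (4.79), Cdkn1a (4.44) and Txnip (2.34) the largest. In exGut 6 of 10 were called higher, where 18.8% of all genes were, with Clu (4.80), Cdkn1a (4.55), Ndrg2 (4.04) and Cdkn2b (3.69) the largest. Growth targets were mixed, since in emGut Ccnd2 and Slc16a1 rose (3.51 and 1.93) while Odc1, the first enzyme of polyamine synthesis, and Cad, which starts pyrimidine synthesis, fell (-1.62 and -1.58), and in exGut Ccnd2 and Tfrc rose (5.29 and 2.18) while Slc16a1 and Srm fell (-2.30 and -1.52). The summed level of the nucleolar list was 12529 ± 1579 TPM in Epi, 7188 ± 472 TPM in exEndo1, 7246 ± 282 TPM in exEndo2 and 3503 ± 135 TPM in YsEndo (SD, n = 4 each).

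In the later gut, embryonic cells at E13.5 (6 libraries of emColon and emSI) had less Mycl and Mxd1 than at E9.5 (8 libraries of emGut). The 6 libraries are of 2 organs, which may share embryos. Mycl had a lowest value of 0.335, a median of 3.0 and a highest value of 7.72 TPM at E13.5 and lay between 10.5 and 23.9 TPM at E9.5, with a median of 14 TPM and no overlap, a log2 fold change of -2.14 (SE 0.417, limma adjusted p = 0.00143). Mxd1 had a lowest value of 0.0168, a median of 0.667 and a highest value of 3.40 TPM at E13.5 and lay between 2.45 and 9.98 TPM at E9.5 (log2 fold change -1.89, SE 0.343, adjusted p = 0.000821). Max passed the test at -1.32 (SE 0.461, adjusted p = 0.0393) in a comparison whose median gene was at -0.46, but the call held in only 9 of 22 alternative analyses. It was lost after rescaling (-1.03, adjusted p = 0.116), without emColon replicate 2 (-0.82), in which Max was 2.02 TPM, without emSI replicate 2 (-1.15), and without any of the 4 emHindgut libraries or emMidgut replicate 1 or 4. These 3 of 9 members were called, where 20.4% of 13017 genes were called, 2.93% higher and 17.5% lower, and Mycl was the 1 without overlap, against 8.28% of genes. For Myc the difference was 0.69 (95% CI -0.76 to 2.13). Of 25 nucleolar targets 0 were called and 2 had an adjusted p under 0.05, where 31.3% of all genes had, with a list median of -0.11. Of 16 cell competition genes 5 were lower, among them Tead4 and Scrib, a polarity gene, (-1.55 each), Wwtr1, which encodes TAZ (-1.49), and Cacfd1, the mouse homologue of Flower (-1.41).

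At E13.5 the extraembryonic cells labelled Trp53 KO, which still held Trp53 RNA, were compared with WT embryonic cells of the same organs. The labels do not say whether libraries of different organs or origins came from the same embryos, and p-values over 6 libraries a group are too small if organs share embryos. Here 0 of 9 members were called over both organs in a fit with organ as a covariate, and 3 had an unadjusted p under 0.05, where 0.625% of 12483 genes were called and 1415 had an unadjusted p under 0.05. The activators all had a higher fitted level in the extraembryonic cells, as did 58.4% of all genes. Myc was 72.8, 99.995 and 64.5 TPM in exSI and 45.4, 63.9 and 20.8 TPM in emSI, and 51.3, 24.0 and 54.6 TPM in exColon and 3.92, 57.4 and 19.1 TPM in emColon, which over both organs gave a log2 difference of 1.09 (95% CI 0.09 to 2.10, limma adjusted p = 0.391). Mycn was 91.4, 88.1 and 119 TPM in exSI and 54.7, 53.6 and 82.5 TPM in emSI, and 110, 69.9 and 85.5 TPM in exColon and 56.1, 38.7 and 52.8 TPM in emColon, a log2 difference of 0.74 (95% CI 0.27 to 1.21, adjusted p = 0.177). Mycl was 12.7, 3.76 and 12 TPM in exSI and 0.722, 7.72 and 4.77 TPM in emSI, and 6.58, 13.3 and 21.2 TPM in exColon and 3.58, 2.43 and 0.335 TPM in emColon, a log2 difference of 1.69 (95% CI 0.43 to 2.94, adjusted p = 0.267). The intervals of all 3 lie above 0, but none passed the adjustment over all genes. For Max the difference was 1.02 (95% CI -0.08 to 2.13) and for Mxd1 it was 1.14 (95% CI -0.12 to 2.40).

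Within organs the groups are 3 against 3, for which an exact permutation test cannot go below 0.10. In the colon Mycn, Mycl, Max and Mxd3 did not overlap and were higher in exColon (16% of genes did not overlap). Of 8 members tested 0 were called, where 0.269% of 11167 genes were. At an unadjusted p under 0.05 there were 3 of these members and 1106 of these genes. Mxd3 was 30.1, 16.2 and 7.39 TPM in exColon and was listed at 0 in each emColon library, so no fold is given. It passed the filter on low values only through exColon, the group in which it was high. In the small intestine Myc and Mycn did not overlap and were higher in exSI (15.7% of genes did not overlap). Their log2 differences were 0.97 (95% CI 0.07 to 1.86, limma adjusted p = 0.442) and 0.66 (95% CI 0.03 to 1.28, adjusted p = 0.459). Here 0 of 8 tested members were called, where 0.738% of 11376 genes were. An unadjusted p under 0.05 was found for 3 of these members and 1174 of these genes. Mxd1 in the colon and Mnt in the small intestine were too low to be tested. Mxd3 in the small intestine was 16.2, 0 and 9.0 TPM in exSI and 47.3, 31.9 and 9.42 TPM in emSI, the direction opposite to the colon. The test of that difference between organs had an unadjusted p of 0.0004 and an adjusted p of 0.241, and 0 of 9 members passed it, where 0.016% of genes did. Of the lists, 0 genes were called over both organs or in the colon, and in the small intestine Clu (2.44) and Cdkn2b (2.25) were higher and Nupr1 (-3.9) was lower in exSI, where it was under 1 TPM in every library and so was tested only through emSI. The mesenchyme genes summed to between 5.90 and 61.4 TPM in the extraembryonic and between 96.5 and 505 TPM in the embryonic libraries, with 1 of 8 and 1 to 2 of 8 above 1 TPM in every library of a group. The collagen genes Col1a1 and Col1a2 and others were listed at 0 in exSI and exColon. Prrx1 was listed at 0 in emSI, and Pdgfrb and Twist1 in emColon. The part of the mesenchyme genes in the differences was not tested.

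Across the 12 group means of log2(TPM + 1), Mxd4 and Mxi1 were the members with the most alike levels (Pearson r = 0.81), followed by Max and Mxd1 (0.78), Mycl and Mxi1 (0.70) and Mycn and Mycl (0.62), and Mxd3 and Mnt were the most unlike (-0.81). Levels near 0 enter the value of this last pair. Mnt had group means between 0.873 and 3.30 TPM, and Mxd3 was listed at 0 in each emColon library. Myc and Mycn had r = 0.35. These values describe 12 points that share stage, handling and depth. Among 14686 protein-coding genes, those most like Myc over the 12 groups were Ndufc2, a subunit of the respiratory complex I (0.83), Rpf2, a ribosome assembly factor (0.81), and Psma5, a proteasome subunit (0.80), and those least like it were Osbp2 (-0.94), Il3ra (-0.87) and Stat2 (-0.84). Those most like Mycn were Dpy30, a subunit of histone methyltransferases (0.96), Pwwp3a (0.95) and Rpp14 (0.94), and those least like it were Tbxas1 (-0.97), Mocos (-0.95) and Chdh (-0.94). The nearest genes were Tnrc6b, Paip2 and Pnrc2 for Mycl (0.97, 0.93 and 0.93), Kpna6, Pigf and Atad1 for Max (0.97, 0.97 and 0.95), Cmtm6, Lyplal1 and Stam2 for Mxd1 (0.96, 0.95 and 0.95) and Lime1, Sdr42e1 and Gm609 for Mxd3 (0.90, 0.85 and 0.82). They were Bmp1, Tspyl1 and Mmp11 for Mxd4 (0.97 each), Sh3bp5l, Dnal4 and Angel2 for Mxi1 (0.96 each) and Kif9, Map3k9 and Trim34a for Mnt (0.91, 0.88 and 0.88). The Mxd4 neighbours Bmp1 and Mmp11 encode secreted proteases, and no statement on shared control follows from these values.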

How the data were processed

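The data are low-input poly(A) RNA libraries (Smart-RRBS protocol) from 44 samples in 12 groups, grouped by the labels. Before deposit, the authors used cutadapt 4.1 for trimming, STAR 2.7.9a for alignment to mm10 extended by the EGFP and mCherry sequences, and StringTie 2.0.6 with the GENCODE VM23 annotation for gene levels. The deposited files give each gene in TPM, which the authors scaled to the same total in every library, and in FPKM, which is scaled by length and aligned reads. The deposited files also give the coverage signal per base of each gene, which served here only to estimate aligned depth. The estimate was the most frequent rounded ratio of coverage to FPKM over expressed genes of a library. Read counts were not used here, so depth enters no interval.

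TPM of rows with the same gene identifier was summed, log2(TPM + 1) was fitted with limma 3.58.1 (R 4.3.3, trend, two-sided) over protein-coding genes not on the Y chromosome that were above 1 TPM in at least 4 libraries (3 for comparisons within E13.5), and p-values were adjusted by Benjamini-Hochberg over all of them. Genes with an adjusted p below 0.05 together with a log2 fold change beyond 1 in either direction were called, and interactions by adjusted p alone. Fold changes on this scale understate those of low genes. Exact permutation tests used SciPy 1.17.1, and tables and plots Python 3.11.15, pandas 2.3.3, NumPy 2.4.6 and matplotlib 3.10.9. The fit was tested on simulated data. Organ was a covariate in the comparison over both organs at E13.5, and region in that of E13.5 with E9.5. Litters of the replicates were not given in the sources used here, so p-values measure the spread between these samples. Tests that join the midgut and hindgut libraries of an origin treat them as independent, although they may share embryos.

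The members and lists were chosen with earlier results of these data known. All 9 members are named, and of each list the counts and up to 4 called genes with the largest absolute log2 fold change. For each member the 3 genes with the most similar group means are named, and for Myc and Mycn also the 3 least similar. Annotation for exons and biotypes was GENCODE vM21, in which exons of Mxd3, Mxd4 and Mxi1 share 4.43%, 6.06% and 2.84% of their bases with Prelid1, Gm42846 and Gm10197. The libraries did not mark strand, so these values may hold reads of the other gene. Same-numbered exEndo1 and exEndo2 libraries deviated together (r = 0.271, 0.167, 0.402 and 0.272). Those of exColon and emColon and of exSI and emSI also correlated best with each other, but weakly (r between 0.021 and 0.0699). In the other groups compared this did not hold for every library. A replicate block was fitted as an alternative for exEndo1 with exEndo2 and for other comparisons within a stage. Alternatives were FPKM, a pseudocount of 0.1, no filter, median-ratio rescaling, no trend, no covariate or region as a covariate, the replicate block, all 44 libraries in a single fit, omission of emMidgut replicates 1 and 3, and leaving out each library.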

Additional observations from a re-analysis of the deposited data

Results flagged for a closer look

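In 72 groups of 4 libraries, 9 members in the groups at E6.5 and E9.5, 3 had a library far from the others by Dixon's criterion, and chance alone gives about 1 in 20. Myc in exEndo2 was 28.5 TPM in replicate 1 and between 50.2 and 53.1 TPM in the others. Mxd4 in exEndo2 was 3.36 TPM in replicate 2 and between 1.33 and 1.61 TPM in the others. Mxi1 in exEndo1 was 3.65 TPM in replicate 4 and between 2.00 and 2.21 TPM in the others.

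For 4 members the change from E6.5 to E9.5 differed between the extraembryonic and the embryonic lineage in a test of the difference itself (limma interaction). The differences in log2 change were 1.42 for Mycn (adjusted p = 0.000197), 1.52 for Mycl (adjusted p = 0.00729), 1.19 for Mxi1 (adjusted p = 0.00676) and -1.14 for Mxd1 (adjusted p = 0.0155), where 34.3% of all genes tested differed.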

How the results depend on the processing

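Of 551 alternative values of the 29 called member differences, 508 kept direction and call, 43 kept the direction and lost the call, and 0 reversed. Alternatives in which a member failed the filter on low values gave no value and are not in this tally. For Mycl in exEndo1 against exEndo2 it holds 10 alternatives, all with the call kept. FPKM and the omission of any of the 4 exEndo1 libraries, in which Mycl was not tested, are not among them. Of 316 alternative values of 14 differences that were not called, 16 reversed, all between exGut and emGut and near 0. Mycn in E9.5 exGut against emGut was -0.12 without emMidgut replicates 1 and 3, and leaving out single libraries gave -0.039 to 0.23 for Mycn, -0.035 to 0.14 for Max and -0.070 to 0.14 for Mxi1. Counts of called members changed as follows. In exEndo1 against exEndo2 (1) there were 0 with FPKM and between 0 and 2 when a library was left out. The 0 came without exEndo1 replicate 1, 2 or 4 and the 2 without exEndo2 replicate 2, where Mxd4 was added. Mycl was above 1 TPM only in the 4 exEndo1 libraries, so it was not tested when any of them was left out. A member called without exEndo1 replicate 3 was thus not Mycl. With all 44 libraries in a single fit there were 3 in place of 0 over both organs at E13.5 (Mxd1, Mycl and Max), 4 in place of 0 in the colon, 1 in place of 0 for the origin by organ interaction (Mxd3), 1 in place of 2 in YsEndo against exEndo2 (Mycn) and 2 in place of 4 for the origin by stage interaction (Mycl and Mycn). Without the mean-variance trend there was 1 in place of 0 in the colon (Mxd3, tested there only through exColon) and 1 in place of 2 in exHindgut against exMidgut (Mxd4), where there was also 1 without the filter and between 1 and 3 when a library was left out (3 without exMidgut replicate 1, where Myc was added, and 1 without exHindgut replicate 1 or 3 or exMidgut replicate 3 or 4). In emGut against Epi there was 1 in place of 3 without emMidgut replicates 1 and 3 (Mxd4), and in YsEndo against exEndo2 there were 4 in place of 2 with a pseudocount of 0.1. The cause of these shifts was not tested. The fit with the replicate block changed no count of called members; for the paired exEndo1 and exEndo2 it gave a log2 fold change of 2.35 for Mycl (limma adjusted p = 0.0035). Among the groups without established pairing, same-numbered libraries of exColon and emColon and of exSI and emSI correlated best with each other, but weakly (r between 0.021 and 0.0699). Few libraries per group, wide spread at E13.5 and values near 0 for Mxd3, Mnt and Mycl limit what can be called.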
